A study of Mus musculus with 4 samples.

Results

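Endoplasmic reticulum (ER) stress and its neighboring amino acid stress pathway were followed through 10 genes chosen by name: Hspa5, Dnajb9, Xbp1, Herpud1, Atf4, Ddit3, Trib3, Asns, Chac1 and Fgf21. All 10 were among the 13903 genes of an mRNA-seq table of mouse liver, and 8 of them passed the filter for comparison, a mean of at least 10 reads per 1000000 reads on the listed genes (CPM) over the 4 libraries, as did 8963 genes in all. Chac1 (mean 5.28 CPM) and Fgf21 (mean 3.91 CPM) did not pass and were not called. Their levels, ratios and differences are given as a description. Ddit3 and Trib3 had a mean under 10 CPM in the Control-labeled libraries and passed only through the OGT-KO-labeled ones, as did 1268 of the 8963 genes, so their passing the filter is not independent of the comparison.

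Livers came from C57BL/6J mice with a floxed Ogt gene, which encodes O-GlcNAc transferase, the enzyme that attaches O-GlcNAc to nuclear and cytosolic proteins. Every group, the controls included, had been fed the CDE diet (choline-deficient and supplemented with ethionine), which injures the liver. The virus was AAV8-TBG-CRE in the groups labeled OGT-KO and AAV8-TBG-eGFP in those labeled Control, and tissue was collected either without recovery after the diet or following 7 days of it. The TBG promoter is active in hepatocytes, so the other cells of the liver keep their Ogt, and the age and sex of the mice are not given in the sources used here. Each of the 4 groups was 1 library made from the RNA of 3 mice in equal parts, so no value has an error between mice and no p-value was computed. The intervals below are 95% exact binomial intervals on the reads (Clopper-Pearson for a level). They cover counting error only.

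In the unfolded protein response, the sensors IRE1α, PERK and ATF6 in the ER membrane answer a load of unfolded proteins. ATF6 and the spliced form of XBP1 raise ER chaperones and the machinery that removes misfolded proteins, while PERK phosphorylates eIF2α, which slows translation in general and favors that of ATF4. Other kinases of eIF2α answer amino acid shortage, heme shortage and double-stranded RNA, and the shared path through ATF4 is called the integrated stress response. Hepatocytes secrete most plasma proteins and have a large ER, and in liver the ATF4 path also reaches the hormone FGF21.

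The 22866431 and 21257763 reads of the OGT-KO- and Control-labeled libraries with no recovery, and the 22567395 and 19972699 after 7 days, set the smallest level that could be read, 3 reads, at 0.131 to 0.150 CPM. Ogt itself had 55.3 CPM in the OGT-KO-labeled library and 64.7 in the Control-labeled library with no recovery. After 7 days it had 77.7 and 55.7 CPM, so in CPM the whole-gene level went against the labels at the later time. Which exons are floxed is not given in the sources used here. The 100 most abundant genes held 34.1 and 34.3% of the reads in the OGT-KO-labeled libraries and 42.8 and 45.0% in those labeled Control. On the scale used throughout, a difference of log2(CPM + 1), which understates the change of low genes, the median of all 8963 genes between the labels, OGT-KO minus Control, was 0.51 with no recovery and 0.48 after 7 days. Under upper-quartile scaling these medians were 0.05 and 0.02, and under median-ratio scaling, which divides each library by the median ratio of its genes to their geometric mean, -0.19 and -0.18. A member between the labels is therefore read below against 0.51 and 0.48. The Ogt differences were -0.22 with no recovery and 0.47 after 7 days, the later one close to the all-gene median. With upper-quartile scaling they were -0.69 and 0.0047, and with median-ratio scaling -0.93 and -0.20.

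Markers of cell types moved with the labels. Among all genes compared, 24.4% were higher at 2-fold in the OGT-KO-labeled library with no recovery and 22.9% after 7 days. The shares lower at 2-fold were 5.69 and 4.27%. Of 8 hepatocyte markers, which include Alb and Apoa1, 4 were lower at 2-fold in the OGT-KO-labeled library with no recovery and 3 after 7 days, and their summed level was 55048.5 against 78105.3 CPM and 65771.3 against 84627 CPM. Alb weighs most in these sums, with a mean of 48787 CPM over the 4 libraries, against 627 to 6713 CPM for the other hepatocyte markers. Of 6 cholangiocyte markers 5 were higher at both times (sum 1157 against 53.9 CPM and 1469 against 69.9 CPM), and all 8 stellate cell markers were (3128 against 159 CPM and 3963 against 105 CPM). Among the cholangiocyte markers Spp1 had a mean of 579 CPM over the 4 libraries, against 5.38 to 37.7 CPM for the others. Of 8 macrophage markers 6 were higher at both times (881 against 206 CPM and 725 against 78.3 CPM), and of 6 endothelial markers 3 and then 1 (317 against 176 CPM and 231 against 125 CPM). Of these markers 3 for cholangiocytes, 3 for stellate cells, 3 for macrophages and 1 for endothelium passed the filter only through the OGT-KO-labeled libraries. Lymphocyte RNA was scarce: of 6 T and natural killer cell markers 2 were listed, with sums of 0.350 to 3.63 CPM and Cd8a at 0 reads in the Control-labeled library after 7 days. B and plasma cell markers summed to 506 against 228 CPM and 584 against 205 CPM, of which Sdc1, also made by hepatocytes, was 489 against 225 CPM and 569 against 204 CPM. The part of these cell types in the results below was not tested, and in whole liver fewer cells of a type and less RNA per cell cannot be told apart.

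The promoters of 5 of the genes are shown because they hold letters known to be read by the pathway's factors. All 10 genes matched a RefSeq promoter window (GRCm38.p6, 250 bases before to 50 after the start). Motifs were searched on both strands: the ER stress response element (ERSE) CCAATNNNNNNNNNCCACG, bound by ATF6 and XBP1 with NF-Y, in 0.119% of all 32851 windows; ERSE-II ATTGGNCCACG, which ends in the same letters, in 0.0365%; the core of the UPR element (UPRE) TGACGTG in 2.01%; and the C/EBP-ATF element (CARE) TGATGNAA, bound by ATF4 with a C/EBP partner, in 3.97%. No 2 matches overlapped in these genes. Each line gives bases -200 to -1 before the start, 5′ to 3′ on the gene's strand, with the matches in capitals.
Hspa5: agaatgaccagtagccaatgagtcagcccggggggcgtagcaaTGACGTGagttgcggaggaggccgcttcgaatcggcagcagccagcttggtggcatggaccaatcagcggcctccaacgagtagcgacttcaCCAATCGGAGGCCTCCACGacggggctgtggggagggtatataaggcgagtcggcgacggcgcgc
Herpud1: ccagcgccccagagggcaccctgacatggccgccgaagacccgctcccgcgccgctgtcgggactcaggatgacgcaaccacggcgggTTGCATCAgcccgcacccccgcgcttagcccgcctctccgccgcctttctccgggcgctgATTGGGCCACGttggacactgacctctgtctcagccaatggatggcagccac
Asns: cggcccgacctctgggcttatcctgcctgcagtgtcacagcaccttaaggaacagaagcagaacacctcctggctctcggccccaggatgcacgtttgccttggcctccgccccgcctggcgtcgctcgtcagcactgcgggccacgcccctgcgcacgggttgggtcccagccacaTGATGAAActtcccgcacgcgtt
Chac1: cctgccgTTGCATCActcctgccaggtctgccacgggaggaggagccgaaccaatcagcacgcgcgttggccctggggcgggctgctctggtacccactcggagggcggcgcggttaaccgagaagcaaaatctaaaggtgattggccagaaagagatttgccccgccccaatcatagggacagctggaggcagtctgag
Fgf21: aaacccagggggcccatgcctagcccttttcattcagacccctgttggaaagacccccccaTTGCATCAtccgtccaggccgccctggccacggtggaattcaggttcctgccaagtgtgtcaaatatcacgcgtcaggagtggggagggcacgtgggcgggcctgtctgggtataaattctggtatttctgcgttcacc
Hspa5 (chr2:34771890-34772089, plus strand) held ERSE at -65 to -47 and the UPRE core at -157 to -151. Herpud1 (chr8:94386229-94386428, plus strand) held ERSE-II at -52 to -42 and, read on the other strand, CARE at -112 to -105. Asns (chr6:7693210-7693409, minus strand) held CARE at -23 to -16. Chac1 (chr2:119351042-119351241, plus strand) held it at -193 to -186 and Fgf21 (chr7:45615491-45615690, minus strand) at -139 to -132, both on the strand opposite to the gene. The 8 letters TTGCATCA were the same in Herpud1, Chac1 and Fgf21. Trib3 had a CARE, also on the opposite strand, at bases 15 to 22 after its start, and Dnajb9, Xbp1, Atf4 and Ddit3 had none of these letters in the window. A match is a description of the sequence and not a site shown to be used.

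**Figure D1:**
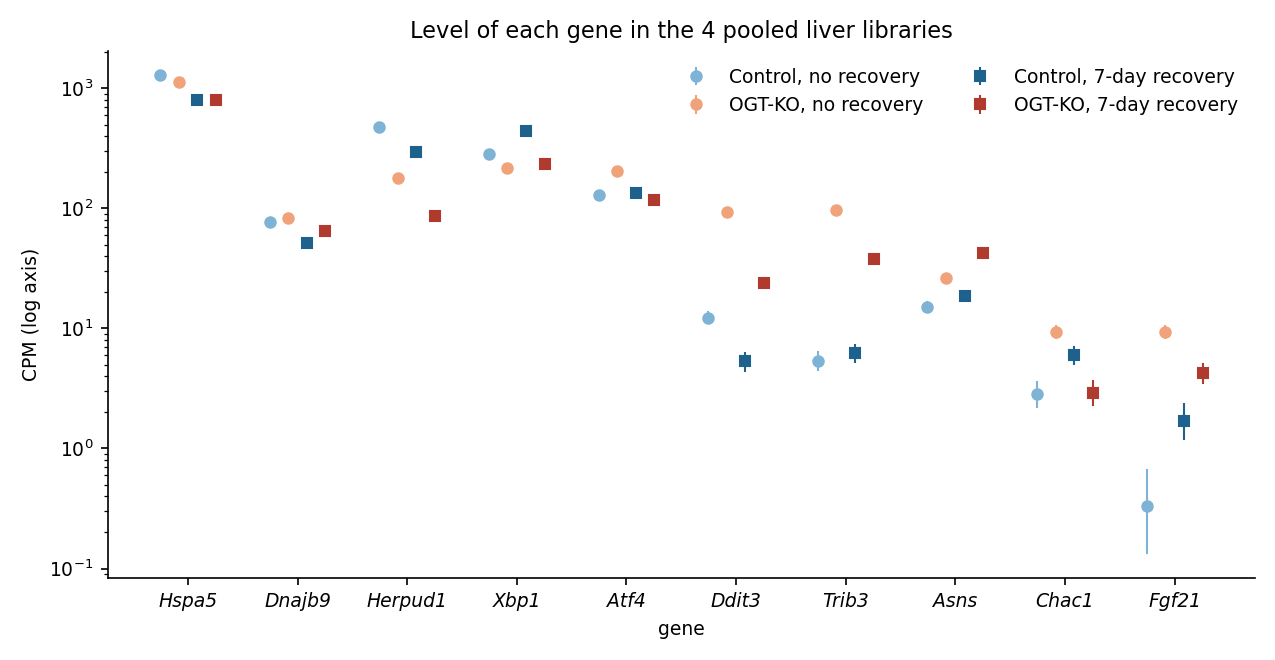
Level of each of the 10 genes (log axis, CPM) in the 4 pooled libraries; circles are no recovery, squares 7-day recovery, blue the Control-labeled libraries, orange and red those labeled OGT-KO, and bars the 95% counting interval. Ddit3 and Trib3 sit at 93.8 and 97.3 CPM in the OGT-KO-labeled library with no recovery and at 12.3 and 5.36 CPM in the Control-labeled library, while Herpud1 lies the other way, at 178 and 476 CPM.

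Hspa5 encodes BiP, the main chaperone of the ER lumen, which also holds the sensors inactive. It was listed at 1128 CPM in the OGT-KO-labeled library and 1286 CPM in the Control-labeled library with no recovery, and at 801 CPM in both after 7 days. In CPM the 2 libraries of a time lay close together, and both libraries with no recovery lay above both after 7 days. The ratio of OGT-KO to Control was 0.878 (0.863 to 0.893) with no recovery, and after 7 days it was 0.999 (0.978 to 1.02), log2 differences of -0.19 and -0.0013. Of all genes compared, 18.1% had a lower difference than Hspa5 with no recovery and 21.4% after 7 days. The Hspa5 differences were -0.66 and -0.48 with upper-quartile scaling and -0.91 and -0.69 with median-ratio scaling, short of 2-fold. Against the other members it was the most abundant in every library, also per length, at 218 to 350 CPM per kilobase of its longest coding transcript.

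Dnajb9 encodes ERdj4, an ER cochaperone of BiP that is induced through XBP1. Its levels were 82.9 CPM (OGT-KO) and 77.0 CPM (Control) with no recovery and 65.3 and 51.6 CPM after 7 days. The log2 difference between the labels was 0.11 and 0.34, which is below the median of all genes at both times and turned to -0.36 and -0.13 under upper-quartile scaling and to -0.61 and -0.34 under median-ratio scaling. A microRNA gene, Mir5627, lies across Dnajb9 on the other strand in GENCODE M21, and the strand setting of the counting is not given in the sources used here.

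Herpud1, whose membrane protein belongs to the complex that moves misfolded proteins out of the ER for degradation, had 178 CPM in the OGT-KO-labeled library and 476 CPM in the Control-labeled library with no recovery. After 7 days it had 86.7 and 297 CPM. Both OGT-KO-labeled libraries thus lay below both labeled Control. The share of all genes that separate the labels in this way was not counted, for Herpud1 or for the members below. The level was 2.67-fold lower (2.58 to 2.77) with no recovery and 3.43-fold lower (3.26 to 3.61) after 7 days, log2 differences of -1.41 and -1.77. Only 3.66 and 1.32% of the genes compared had a lower difference. Scaling by the median ratio moved the differences further down, to -2.13 and -2.45.

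Xbp1 encodes the transcription factor whose mRNA is spliced by IRE1α; the gene-level reads do not separate the spliced form. It stood at 218 CPM (OGT-KO) and 282 CPM (Control) with no recovery and at 237 and 443 CPM after 7 days. The Control-labeled library after 7 days was the highest of the 4. Between the labels the ratio was 0.771 (0.742 to 0.800) with no recovery, and after 7 days the OGT-KO-labeled library was 1.87-fold lower (1.81 to 1.94). The log2 differences, -0.37 and -0.90, did not reach 2-fold at equal totals. With median-ratio scaling they were -1.09 and -1.58, past 2-fold at both times, and with upper-quartile scaling -0.84 and -1.38, past it after 7 days.

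Atf4 encodes the transcription factor at the center of the integrated stress response, which is governed largely at translation, so its mRNA level does not give its protein level. It had 206 CPM in the OGT-KO-labeled library and 130.4 in the Control-labeled library with no recovery, and 117 and 134 CPM after 7 days. The OGT-KO-labeled library with no recovery stood above the other 3, which lay between 117 and 134 CPM. Between the labels the ratio was 1.58 (1.50 to 1.65) with no recovery, and after 7 days it was 0.872 (0.827 to 0.921). The log2 difference of 0.65 with no recovery was near the all-gene median, with 58.6% of genes below it, and became -0.06 under median-ratio scaling. After 7 days it was -0.20, with 14.9% of genes below it.

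Ddit3 encodes CHOP, a transcription factor induced by ATF4 that is linked to cell death under lasting ER stress. The OGT-KO-labeled library with no recovery had 93.8 CPM (2145 reads), the Control-labeled library with no recovery 12.3 CPM (262 reads), and after 7 days the levels were 23.8 CPM (538 reads) and 5.31 CPM (106 reads). Both OGT-KO-labeled libraries lay above both labeled Control. The level was 7.61-fold higher (6.69 to 8.69) with no recovery and 4.49-fold higher (3.64 to 5.59) after 7 days, log2 differences of 2.83 and 1.98. Of the genes compared, 96.7 and 91.0% had a lower difference, and under median-ratio scaling the differences were 2.14 and 1.36. Ddit3 overlaps Mars, a methionyl-tRNA synthetase gene on the other strand, and the noncoding Gm4189, and reads of overlapping genes cannot be told apart without the strand setting. Mars itself stood at 89.7 against 70.0 CPM and 82.3 against 66.2 CPM, log2 differences of 0.35 and 0.31.

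Trib3 encodes a pseudokinase that is induced by ATF4 and CHOP and dampens both ATF4 and insulin signaling. It had 97.3 CPM (2225 reads) in the OGT-KO-labeled library and 5.36 CPM (114 reads) in the Control-labeled library with no recovery, and 38.1 CPM (859 reads) and 6.21 CPM (124 reads) after 7 days. Both OGT-KO-labeled libraries lay above both labeled Control, and Trib3 passed the filter only through the former. The level was 18.1-fold higher (15.0 to 22.1) and 6.13-fold higher (5.07 to 7.46), log2 differences of 3.95 and 2.44, the largest among the members compared at each time. With no recovery 99.0% of the genes compared had a lower difference, and after 7 days 93.6%. Median-ratio scaling gave 3.28 and 1.81.

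Asns encodes asparagine synthetase, a target of ATF4 in amino acid shortage. Its levels were 26.4 CPM (OGT-KO) and 15.1 CPM (Control) with no recovery and 42.2 and 18.6 CPM after 7 days. Both OGT-KO-labeled libraries lay above both labeled Control, by 1.75-fold (1.53 to 2.02) and 2.26-fold (2.01 to 2.56). The log2 differences were 0.77 and 1.14, of which the later one passed 2-fold at equal totals but not with upper-quartile scaling (0.68) or median-ratio scaling (0.48).

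Chac1 encodes an enzyme that degrades glutathione and is induced along the ATF4 path. It had 9.40 CPM (215 reads) in the OGT-KO-labeled library and 2.82 CPM (60 reads) in the Control-labeled library with no recovery. After 7 days the order was the reverse, with 2.92 CPM (66 reads) and 5.96 CPM (119 reads). The OGT-KO-labeled library was 3.33-fold higher (2.49 to 4.51) with no recovery and 2.04-fold lower (1.50 to 2.80) after 7 days. Chac1 is below the filter and was not called.

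Fgf21 encodes a hormone that hepatocytes release under fasting and stress and that acts through the receptor partner beta-Klotho. The OGT-KO-labeled library with no recovery had 9.36 CPM (214 reads) and the Control-labeled library 0.329 CPM (7 reads, interval 0.132 to 0.678 CPM). After 7 days the levels were 4.25 CPM (96 reads) and 1.70 CPM (34 reads). Both OGT-KO-labeled libraries were above both labeled Control, 28.4-fold (13.6 to 71.5) with no recovery, where the wide interval goes with the 7 reads, and 2.50-fold (1.67 to 3.81) after 7 days. Fgf21 is below the filter and was not called.

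Between the labels with no recovery, 2 of the 8 genes compared, Ddit3 and Trib3, were called higher at 2-fold, beside 24.4% of all genes compared, and 1, Herpud1, was called lower, beside 5.69% of all genes. After 7 days 3 were called higher, Ddit3, Trib3 and Asns, beside 22.9% of all genes, and Herpud1 again was the 1 called lower, beside 4.27%. Ddit3 and Trib3 passed the filter only through the OGT-KO-labeled libraries, so their calls are a description. Of the 6 members with a Control mean of at least 10 CPM, 0 were called higher with no recovery and 1 after 7 days. Among all such genes the shares called higher were 15.8 and 14.2%. The median log2 difference of the 8 was 0.38 with no recovery and 0.17 after 7 days, against 0.51 and 0.48 over all genes. Read against these shares, the counts say little of the genes as a set. Hspa5, Dnajb9, Herpud1 and Xbp1, the genes of the ER folding and degradation branch, lay below the all-gene median at both times. On the ATF4 path the genes did not move as 1 group: Atf4 and Chac1 lay above that median with no recovery and below it after 7 days (0.65 and -0.20 for Atf4, 1.44 and -0.83 for Chac1). Of this pair Chac1 is below the filter.

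**Figure D2:**
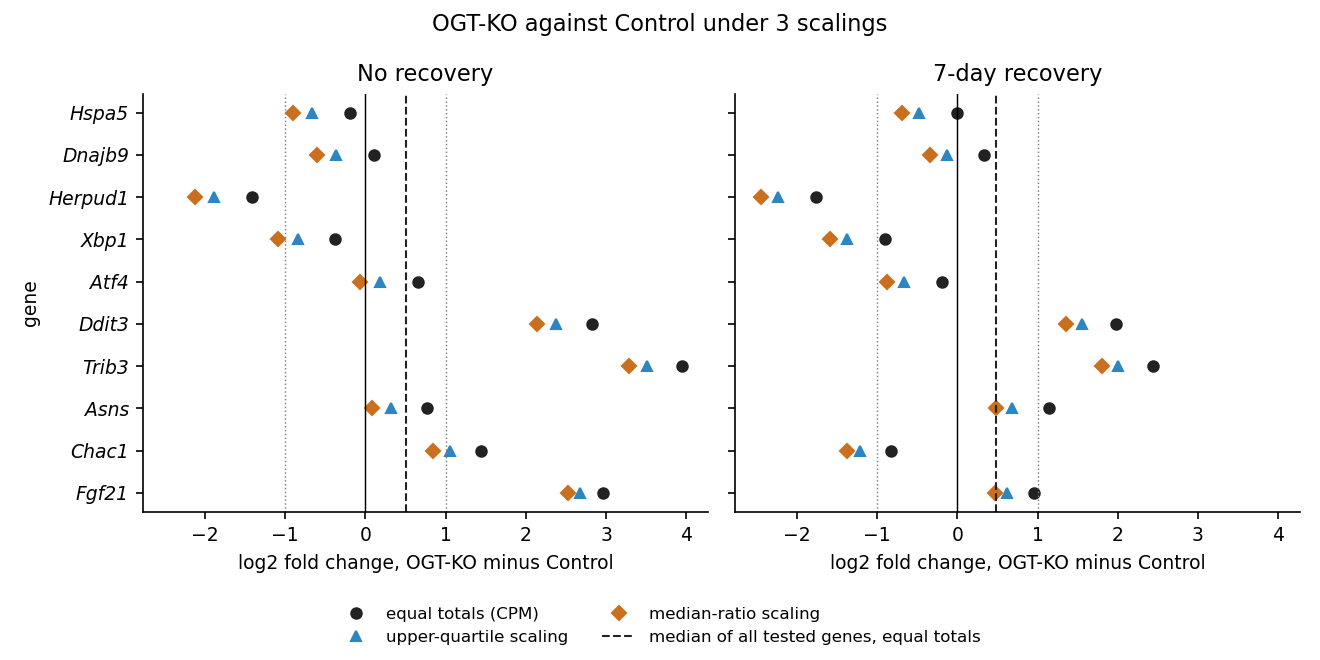
Difference of log2(CPM + 1) between the libraries labeled OGT-KO and Control with no recovery (left) and after 7 days (right), for each of the 10 genes; black circles are equal totals, blue triangles upper-quartile scaling, orange diamonds median-ratio scaling, dotted lines 2-fold, and the dashed line the median of all genes compared (0.51 and 0.48). Ddit3 and Trib3 lie past 2-fold on the right and Herpud1 on the left under every scaling at both times, while Dnajb9 lies on either side of 0 depending on the scaling.

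The order of the genes per length differed between the labels. In the Control-labeled library with no recovery the order from the top was Hspa5 (350.2 CPM per kilobase), Herpud1 (244), Xbp1 (133), Atf4 (75.6), Dnajb9 (31.3), Ddit3 (13.8), Asns (7.47), Trib3 (2.65), Chac1 (1.72) and Fgf21 (0.346), and of these neighbors Trib3 and Chac1 had overlapping intervals. In the OGT-KO-labeled library with no recovery Atf4 (119 CPM per kilobase) and Ddit3 (105) stood next after Hspa5 (307), Ddit3 and Xbp1 (102) had overlapping intervals, and Herpud1 (91.3) came next. After 7 days Ddit3 (26.8) and Dnajb9 (26.5) could not be ranked in the OGT-KO-labeled library, nor could Asns (20.9) and Trib3 (18.8). In the Control-labeled library after 7 days, Xbp1 (208) came close to Hspa5 (218), and Chac1 (3.64) and Trib3 (3.06) had overlapping intervals.

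Recovery was compared within each label, 7 days against none. The 4 comparisons share their libraries, so they are not independent of each other. In the Control-labeled libraries, 1 of the 8 genes was called lower, Ddit3 by 2.32-fold (1.85 to 2.94), beside 0.96% of all genes compared, and 0 were called higher, beside 0.245% of all genes. Herpud1 was 1.60-fold lower (1.55 to 1.66) and Hspa5 had 0.623 of its level with no recovery (0.611 to 0.635), log2 differences of -0.68 each that did not reach 2-fold. Xbp1 went the other way, 1.57 times its earlier level (1.52 to 1.62), with 99.0% of genes below its difference of 0.65. Trib3 differed by a ratio of 1.16 (0.890 to 1.51) and Atf4 by 1.03 (0.977 to 1.09), intervals that include 1. Macrophage markers moved along in these libraries: 5 of the 6 compared were called lower after recovery, beside 0.96% of all genes (median log2 difference -1.26). In the OGT-KO-labeled libraries 0 of the macrophage markers were called lower, beside 0.435% of all genes (-0.36), and the part of these markers was not tested.

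In the OGT-KO-labeled libraries, 3 of the 8 were called lower after 7 days, beside 0.435% of all genes compared, and 0 higher, beside 1.04%. Ddit3 was 3.93-fold lower (3.58 to 4.33), a log2 difference of -1.93 with 0.0223% of the genes compared below it. Trib3 was 2.56-fold lower (2.36 to 2.77) and Herpud1 2.06-fold lower (1.95 to 2.17). The Herpud1 difference, -1.03, was -0.99 with upper-quartile and -0.96 with median-ratio scaling, which ends that call. Atf4 was 1.75-fold lower (1.67 to 1.84), short of 2-fold on the log2 scale at -0.81, and Hspa5 had 0.709 of its earlier level (0.696 to 0.723). Asns stood apart with a ratio of 1.60 (1.44 to 1.77). Over all genes compared, the median difference for recovery was -0.05 in the Control-labeled libraries and -0.03 in those labeled OGT-KO.

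**Figure D3:**
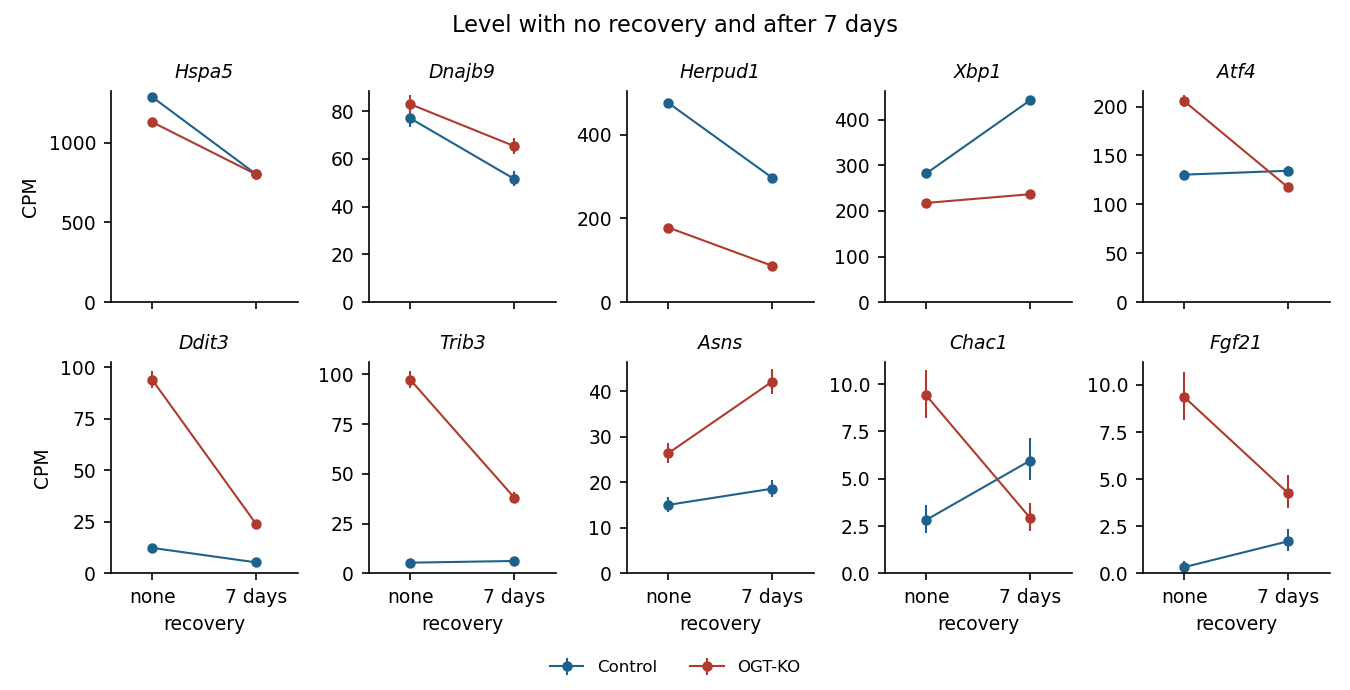
Level of each gene (CPM, linear axis from 0, one scale per panel) with no recovery and after 7 days in the Control-labeled libraries (blue) and OGT-KO (red); each point is 1 pooled library, bars are 95% counting intervals, and lines join different mice. Ddit3 goes from 93.8 to 23.8 CPM and Trib3 from 97.3 to 38.1 CPM in the OGT-KO-labeled libraries, Herpud1 is lower after 7 days in both labels, and Atf4 and Chac1 cross between the labels.

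The rest of the pathway was read from lists of genes that do not include these 10. The sensors and their processing enzymes had 6 genes, all compared, of which 2 were called higher in the OGT-KO-labeled library with no recovery and 1 after 7 days (median log2 difference 0.64 and 0.63), beside 24.4 and 22.9% of all genes. Of the 2, Mbtps2 passed the filter only through the OGT-KO-labeled libraries, and it was picked out after its values were seen. Of the 5 genes with a Control mean of at least 10 CPM, 1 was called higher at each time. Among all such genes the shares were 15.8 and 14.2%. Eif2ak3, which encodes PERK, was the gene called at both times, at 56.4 against 22.0 CPM and 42.9 against 17.1 CPM, log2 differences of 1.32 and 1.28. Ern1, which encodes IRE1α, had 135 against 106 CPM and 102 against 109 CPM (0.35 and -0.09). Atf6 had 121 against 72.7 CPM and 95.2 against 76.0 CPM (0.73 and 0.32). Of the 12 genes for eIF2 kinases, phosphatase subunits and eIF2B, 2 and then 1 were called higher, beside the same shares of all genes, Eif2ak3 at both times and, with no recovery, Ppp1r15a, which encodes the phosphatase subunit GADD34 (40.5 against 17.6 CPM, 1.16); Ppp1r15a was picked out after its values were seen. Eif2ak4, which encodes the amino acid sensor GCN2, had 10.3 against 9.13 CPM and 11.7 against 8.96 CPM (0.16 and 0.35). It was 1 of 2 genes of the eIF2 list that passed the filter only through the OGT-KO-labeled libraries, and 0 of the 2 were called higher. With median-ratio scaling 0 genes of either list were called.

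ER chaperones and disulfide enzymes had 16 genes, and with no recovery 12 of them were below 0 between the labels, with a median of -0.58 against 0.51 over all genes. Of the 16, 3 were called lower, beside 5.69% of all genes, Hyou1, Sdf2l1 and Ero1lb. Dnajc10 was the 1 called higher, beside 24.4% of all genes, at 73.7 against 23.9 CPM (1.58). Hyou1, an ER chaperone of the Hsp70 type, had 188 against 508 CPM (-1.43), Sdf2l1 29.7 against 70.1 CPM (-1.21) and Ero1lb, an ER oxidase, 39.5 against 94.8 CPM (-1.24); these 3 were picked out after their values were seen. After 7 days 6 of the 16 were below 0 and 0 were called lower, with a median of 0.11. Dnajc10, a disulfide reductase, was again called higher (75.5 against 23.8 CPM, 1.62), beside 22.9% of all genes. With median-ratio scaling 10 of the 16 were called lower with no recovery and 3 after 7 days, and 0 higher. In the Control-labeled libraries 15 of the 16 were lower after recovery than before (median -0.49). Of these Sdf2l1 (-1.05) and Creld2 (-1.40) were called, beside 0.96% of all genes, a pair picked out after its values were seen. In the OGT-KO-labeled libraries 8 of 16 were lower after recovery, 0 were called and the median was -0.03. The difference between the labels in this respect was not tested.

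ER-associated degradation had 14 genes, 13 of them compared. With no recovery 10 of the 14 were below 0 between the labels (median -0.21), and 1 was called higher, beside 24.4% of all genes. It was the ubiquitin-conjugating enzyme Ube2g2, close to the threshold at a ratio of 2.03 (73.6 against 36.3 CPM). After 7 days 7 of 14 were below 0 and 0 were called. With median-ratio scaling 5 were called lower with no recovery and 3 after 7 days, and 0 higher (medians -0.93 and -0.66). Recovery in the Control-labeled libraries went with lower values in 14 of 14 genes (median -0.24). Of these Syvn1, the ubiquitin ligase that works with Herpud1, was called lower (346 to 160 CPM, -1.11), beside 0.96% of all genes. Derl3, below the filter, had 1.44 against 12.6 CPM with no recovery and 0.89 against 3.60 CPM after 7 days. Ube2g2, Syvn1 and Derl3 were picked out after their values were seen. Among 14 translocon and signal peptidase genes, 0 were called with no recovery and 2 higher after 7 days, beside 22.9% of all genes called higher. These were Ssr1 (233 against 107 CPM, 1.12) and Ssr2 (151 against 73.2 CPM, 1.04), both subunits of the translocon-associated complex and both picked out after their values were seen. With median-ratio scaling both calls end (0.44 and 0.36), and 1 gene of the list, the signal peptidase subunit Sec11c, was called lower with no recovery (-1.57).

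Stress-induced regulators that share the ATF4 path with Ddit3 and Trib3 had 12 genes, 10 of them compared. Of the 10, 6 passed the filter only through the OGT-KO-labeled libraries (Atf3, Ddit4, Gadd45a, Gdf15, Nupr1 and Sesn2), so that they had to differ, and these 6 were the ones called higher at both times. Of all 1268 genes that passed in that way, 967 were called higher with no recovery and 959 after 7 days. Of the other 4 genes of the list, Eif4ebp1, which encodes a brake on translation, was called higher with no recovery (120.2 against 42.7 CPM, 1.47) and 0 after 7 days, and 0 were called lower. Among all other genes compared, 15.8 and 14.2% were called higher. With median-ratio scaling 6 of the 10 were called higher with no recovery and 4 after 7 days, 0 and 1 lower, and the Eif4ebp1 call ends (0.76). These counts are a description, and Ddit4, Gadd45a, Gdf15, Sesn2 and Eif4ebp1 were picked out after their values were seen. Nupr1, a small chromatin regulator induced by stress, had 25.0 against 0.99 CPM and 25.8 against 0.75 CPM (3.71 and 3.94). Atf3, a transcription factor that joins ATF4 and CHOP, had 47.6 against 2.96 CPM and 17.5 against 0.80 CPM (3.62 and 3.36). Atf3 was also the gene of this list called lower after recovery in both labels, by -1.14 in those labeled Control and -1.39 in those labeled OGT-KO.

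Genes of amino acid synthesis and transport under ATF4 had 15 members in the list, 14 of them above 0 between the labels at both times. Among all genes compared the median was 0.51 and 0.48, and 24.4 and 22.9% were called higher. Of the 8 list genes compared, 4 were called higher with no recovery and 3 after 7 days, and 2 and 2 with median-ratio scaling, which called 1 and 0 lower. Slc7a11, Aldh18a1 and Psph passed the filter only through the OGT-KO-labeled libraries and were the 3 called after 7 days, so these counts are a description; Psph was picked out after its values were seen. Slc7a11, the cystine transporter, had 51.9 CPM against 0 reads with no recovery, at least 368-fold higher against a floor of 3 reads in that library, and 36.5 CPM against 1 read after 7 days, a ratio of 728 with an interval of 130.4 to 28804. Aldh18a1, the first enzyme of proline synthesis, had 28.3 against 1.32 CPM and 27.5 against 1.30 CPM (3.66 and 3.63). Cytosolic aminoacyl-tRNA synthetases, which load amino acids onto tRNA and include ATF4 targets, had 12 genes, of which 2 were called higher with no recovery and 1 after 7 days (medians 0.72 and 0.34), beside 24.4 and 22.9% of all genes. Median-ratio scaling left 1 and 1 (medians 0.02 and -0.33). Gars, the glycyl enzyme, was called at both times, with 239 against 45.6 CPM and 190.0 against 50.5 CPM (2.36 and 1.89). All 12 were lower after recovery in the OGT-KO-labeled libraries, with 0 called and a median of -0.28, and 6 of 12 in those labeled Control.

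**Figure D4:**
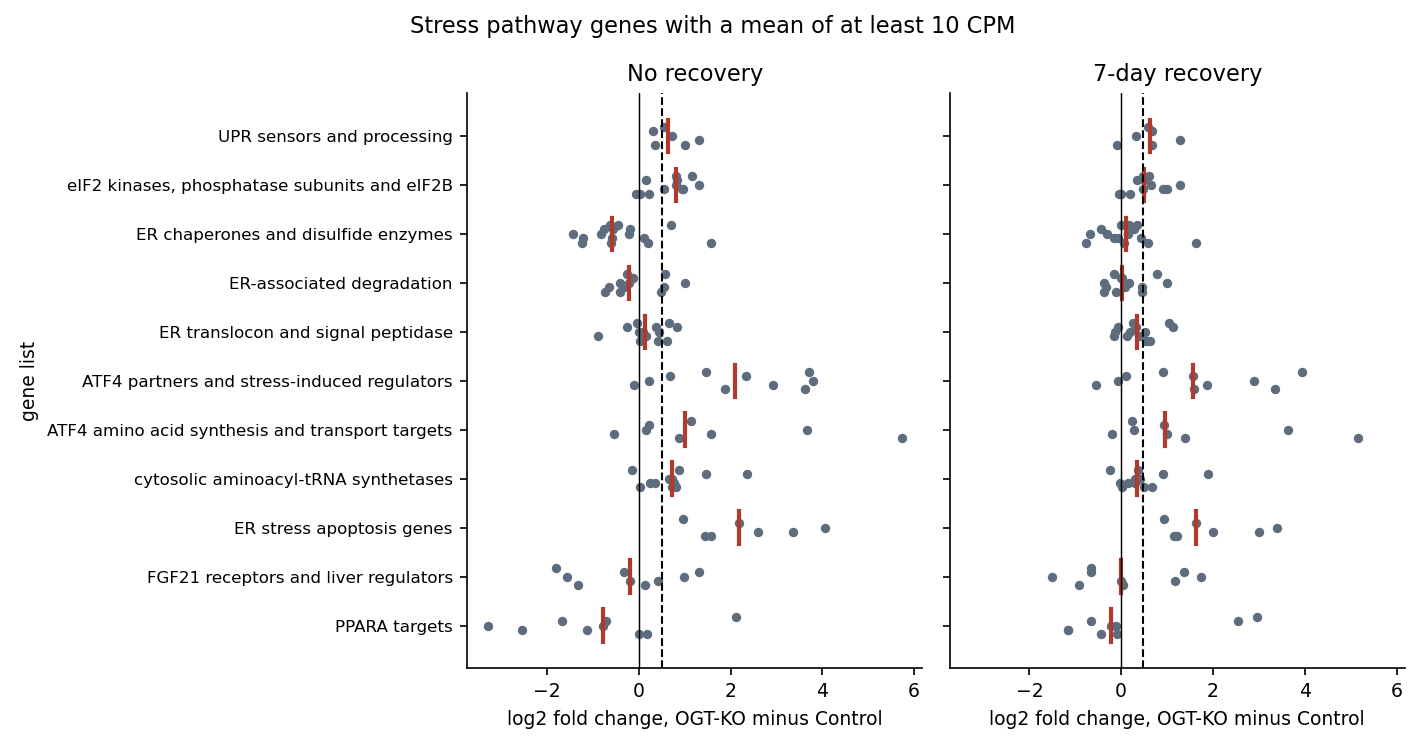
Difference of log2(CPM + 1) between the libraries labeled OGT-KO and Control for the genes of each list with a mean of at least 10 CPM (gray points), with the list median (red bar) and the median of all genes compared (dashed line, 0.51 and 0.48), with no recovery (left) and after 7 days (right). The ER chaperone list has medians of -0.58 and 0.11. Some points belong to genes that passed the filter only through the OGT-KO-labeled libraries. These are 6 of the 10 stress-induced regulators, 4 of the 7 apoptosis genes and 3 of the 8 amino acid genes. They are also 1 of the 6 sensor genes, 2 of the 12 eIF2 genes and 1 of the 9 PPARA targets.

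Around Fgf21, 9 genes for its receptors and for liver factors that regulate it were compared. Between the labels 24.4 and 22.9% of all genes compared were called higher and 5.69 and 4.27% lower. Of the 9, 1 was called higher and 3 lower with no recovery, and 3 higher and 1 lower after 7 days (medians -0.20 and -0.003). With median-ratio scaling 0 were called higher and 4 lower with no recovery, and 1 higher and 4 lower after 7 days (medians -0.91 and -0.69). Klb, which encodes beta-Klotho, the partner that FGF21 needs for binding, had 22.5 against 20.2 CPM and 21.2 against 20.5 CPM (0.15 and 0.04), and was picked out for its role. Fgfr3, a receptor kinase, was called higher at both times (111 against 43.8 CPM, 1.32, and 144 against 55.4 CPM, 1.36), calls that end with median-ratio scaling (0.61 and 0.68). Mlxipl, which encodes the glucose-sensing factor ChREBP, was called lower at both times (163 against 485 CPM, -1.57, and 219 against 620.0 CPM, -1.50). Of 9 targets of PPARA, the factor that induces Fgf21 in fasting, 4 were called lower and 1 higher with no recovery. After 7 days 2 were called lower and 2 higher (medians -0.77 and -0.21), beside the same shares of all genes. Median-ratio scaling gave 6 lower and 1 higher, then 4 lower and 2 higher (medians -1.49 and -0.89). Acaa1b, a peroxisomal thiolase of fatty acid oxidation, was called lower at both times (190.1 against 1107 CPM, -2.53, and 307 against 688 CPM, -1.16). Pdk4, an inhibitor of pyruvate dehydrogenase that passed the filter only through the OGT-KO-labeled libraries, was higher (27.5 against 5.50 CPM, 2.13, and 33.9 against 3.45 CPM, 2.97).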

How the data were processed

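RNA of about 60 mg of liver was taken with TRIzol, and libraries were made with the Tecan universal plus mRNA-seq kit and run on 2 lanes, per the labels and the series text. The authors deposited 1 table of normalized values for the 4 libraries, which is named for DESeq2. Its values are CPM, reads scaled to a library total of 1000000, since each column sums to 1000000, and 100% of the values are whole reads within 0.01 of a read, so the reads were recovered from the deposited CPM. The submitters' processing notes name STAR, DESeq2 and the build GRCm39 with no role or version; the counter, annotation, strand setting and filter are not given in the sources used here. The number of columns left out is 0.

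A gene was compared where its mean reached 10 CPM, by the difference of log2(CPM + 1), and called at 2-fold. With 1 library per condition there was no test between conditions. Members and lists were chosen with earlier results of these data known. Named genes are the members, Ogt, Ern1, Eif2ak3, Atf6, Eif2ak4 and, per list, up to 2 genes called higher and up to 2 called lower at both times with the largest mean difference and up to 1 called in both recovery comparisons in 1 direction; others are marked as picked after their values were seen, and 1 gene that the rule names is not reported here. Listed genes were matched by symbol, with older symbols for 14. Promoters came from RefSeq (GRCm38.p6) and lengths and overlaps from GENCODE M21, whose build differs from that of the table, so no other coordinates are given. Steps were tested on simulated reads. Alternatives were pseudocounts of 0.1 and 10, no filter, a mean of at least 50 CPM, upper-quartile and median-ratio scaling, a 4-fold threshold, and an added exact binomial test on the recovered reads. Python 3.11.15, numpy 2.4.6, pandas 2.3.3, scipy 1.17.1 and matplotlib 3.10.9 were used.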

Additional observations from a re-analysis of the deposited data

Results flagged for a closer look

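For 3 genes the direction differed between comparisons while each counting interval left out a ratio of 1. Between the labels, Atf4 was higher in the OGT-KO-labeled library with no recovery (206 against 130.4 CPM) and lower after 7 days (117 against 134 CPM), and the later log2 difference less the earlier one was -0.85. Chac1 was higher with no recovery (9.40 against 2.82 CPM) and lower after 7 days (2.92 against 5.96 CPM), a difference of -2.27. The same Chac1 values gave opposite directions for recovery: 2.11-fold higher after 7 days (1.54 to 2.93) in the Control-labeled libraries and 3.21-fold lower (2.43 to 4.30) in those labeled OGT-KO. Fgf21 was 5.17-fold higher after recovery (2.26 to 13.8) in the Control-labeled libraries and 2.20-fold lower (1.72 to 2.83) in those labeled OGT-KO, a difference of -2.00. These differences were not tested, since each condition has 1 library, and Chac1 and Fgf21 rest on 7 to 215 reads. Under median-ratio scaling the Atf4 difference between the labels with no recovery was -0.06, so its directions were then not opposite.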

How the results depend on the processing

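At equal totals 2695 and 2433 genes were called between the labels with no recovery and after 7 days, and 108 and 132 for recovery in the Control-labeled libraries and OGT-KO. Of the calls between the labels 81.1 and 84.3% were higher; the shares were 55.8 and 62.6% with upper-quartile and 40.4 and 49.6% with median-ratio scaling. Of the 40 member differences, 2 changed sign with upper-quartile and 3 with median-ratio scaling (Dnajb9 at both times and, with the latter, Atf4 with no recovery), and 0 with the other pseudocounts. Members called lower between the labels came to 2 with median-ratio scaling at both times and 2 with upper-quartile scaling after 7 days, in place of 1 each, through Xbp1. A pseudocount of 10 gave 1781 genes between the labels with no recovery, 33 and 57 for recovery, and 0 members lower in Control, and one of 0.1 gave 165 genes for recovery in Control. Without the filter 5200 and 4953 genes were called between the labels and 165 and 288 for recovery, with 4 members higher with no recovery (Chac1 and Fgf21 added) and 1 higher for recovery in Control (Fgf21). A mean of at least 50 CPM, which Ddit3, Trib3 and Asns do not reach, gave 876, 784, 42 and 54 genes, 0 and 0 members higher between the labels and 0 and 1 lower for recovery. A 4-fold threshold gave 855, 875, 5 and 8 genes, 0 members lower in any comparison and 1 higher between the labels after 7 days. The exact binomial test on reads, Benjamini-Hochberg adjusted, compares libraries and not conditions, and removed 0 of the 2-fold calls. No paired analysis was possible because each group has 1 library and the labels give no replicate numbers. Depth limits Fgf21 and Chac1 most, and 1 library per condition limits every value.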

Other observations

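Genes of cell death under ER stress, downstream of CHOP or of the same pathway, had 9 members in the list, all 9 above 0 between the labels at both times. Among all genes compared the median was 0.51 and 0.48, and 24.4 and 22.9% were called higher in the OGT-KO-labeled library. Of the 7 list genes compared, 6 were called higher at both times, and 4 and 3 with median-ratio scaling. Of these 6, Bbc3, Bcl2l11, Casp12 and Tnfrsf10b passed the filter only through the OGT-KO-labeled libraries, so that they had to differ, and the counts are a description; the naming of Bbc3 and Bcl2l11 followed a look at their values. Tnfrsf10b, which encodes the death receptor DR5, had 25.9 against 0.61 CPM with no recovery and 13.2 against 0.35 CPM after 7 days (log2 differences 4.06 and 3.39). Casp12, a caspase of the ER, had 23.8 against 1.41 CPM and 16.8 against 1.20 CPM (3.36 and 3.01). The list also holds Bcl2l1, which protects cells from death and was called higher as well (117 against 38.7 CPM, 1.57, and 79.7 against 35.1 CPM, 1.16); it was picked out after its values were seen.

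Targets of NRF2, the factor that answers oxidative stress, had 8 genes. Of these 6 were called higher between the labels with no recovery and 5 after 7 days, beside 24.4 and 22.9% of all genes. Median-ratio scaling gave 4 and 4. Of the 8, Nqo1 and Slc7a11 passed the filter only through the OGT-KO-labeled libraries, Nqo1 being picked out after its values were seen. Slc7a11 is on this list and on the ATF4 list. Srxn1, which repairs oxidized peroxiredoxins, had 1018 against 48.7 CPM and 506 against 41.7 CPM (4.36 and 3.57). Heat shock chaperones outside the ER, 10 of 11 compared, were read beside those of the ER. Between the labels 24.4 and 22.9% of all genes were called higher and 5.69 and 4.27% lower. Of these chaperones 0 were called higher and 2 lower with no recovery, and 2 higher and 0 lower after 7 days (medians 0.09 and 0.32). Median-ratio scaling gave 0 higher and 3 lower, then 0 higher and 1 lower (medians -0.62 and -0.36). In the Control-labeled libraries 11 of 11 were lower after recovery and 5 were called, beside 0.96% of all genes (median -0.90). In those labeled OGT-KO 10 of 11 were lower and 1 was called, beside 0.435% of all genes (median -0.38). Hspa1b, an inducible Hsp70, whose reads are uncertain singly because Hspa1a is nearly identical, was the gene called in both, from 48.2 to 4.66 CPM (-3.12) and from 12.2 to 4.03 CPM (-1.39).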
